A study of Homo sapiens with 16 samples.

Results

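The genes described here are 10 heat shock genes that encode chaperones of the cytosol and of mitochondria: HSPA1A, HSPA1B, HSPA8, HSPH1, DNAJB1, HSP90AA1, HSP90AB1, HSPB1, HSPD1 and HSPE1. They were taken by symbol from the 55510 gene symbols of the count files, and all 10 were among the 22007 genes with enough counts to test. RNA was sequenced from CAL51 cells, a triple-negative breast cancer line, after 6 or 24 h with the compound CC-671 or with its DMSO vehicle. Every group was this 1 line, described by the labels as near-diploid with a tetraploid fraction, so the libraries carry no second genetic background. The groups were DMSO for 6 h (2 libraries), 3 µM CC-671 for 6 h (3 libraries), 10 µM CC-671 for 6 h (3 libraries), DMSO for 24 h (2 libraries), 3 µM CC-671 for 24 h (3 libraries) and 10 µM CC-671 for 24 h (3 libraries). CC-671 is known as an inhibitor of the kinases TTK, which acts in the spindle checkpoint, and CLK2, which phosphorylates splicing factors.

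Heat shock proteins bind unfolded or unstable proteins and help them to fold, to be held in solution or to be passed on for degradation. In the cytosol, J-domain proteins such as DNAJB1 deliver clients to HSP70, nucleotide exchange factors such as HSPH1 let HSP70 release them, and HSP90 completes the folding of many kinases and receptors. In the mitochondrial matrix, HSPD1 (HSP60) and HSPE1 (HSP10) form a folding chamber for imported proteins. The transcription factor HSF1 raises many of these genes when proteins misfold, by binding heat shock elements, which are repeats of the unit GAA in alternating orientation. Cancer cell lines often hold several of these chaperones at high levels without heat.

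RefSeq promoter windows, from 250 bases before to 50 bases after a start site, were found for all 10 genes (16 windows, build GRCh38.p14). The windows were searched for a pair of units in opposite orientation, written GAANNTTC or TTCNNGAA. Both motifs read the same on both strands and may overlap. A match is a description of the letters only. Of all 35116 promoter windows in the table, 13.5% held one or the other (6.77% GAANNTTC and 7.74% TTCNNGAA), and 0.49% held a run of 3 units. Of the 16 windows of the 10 genes, 9 held a match and 4 held a run of 3 units. Counted by gene, 8 of the 10 had a window with a match, and 4 (HSPA8, HSP90AA1, HSP90AB1 and HSPD1) had a run of 3 units. Some genes have several windows, so the counts by gene cannot be set beside the shares of all windows. The windows of HSPH1 and HSPE1 held no match. HSP90AA1, HSP90AB1, DNAJB1 and HSPD1 also had windows without a match. The 6 windows below all hold a match. They are shown because the genes behind them followed different courses after CC-671 and their matches differ in number and form. Capitals mark the matches, and each line runs 5′ to 3′ on the gene's own strand.
DNAJB1, chr19:14518348-14518647, minus strand: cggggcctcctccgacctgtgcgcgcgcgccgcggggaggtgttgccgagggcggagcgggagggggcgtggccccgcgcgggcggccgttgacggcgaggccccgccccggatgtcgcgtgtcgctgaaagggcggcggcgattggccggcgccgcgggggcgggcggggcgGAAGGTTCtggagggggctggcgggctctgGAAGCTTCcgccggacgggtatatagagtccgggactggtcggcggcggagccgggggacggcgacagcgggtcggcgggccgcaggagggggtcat
HSP90AA1, chr14:102086995-102087294, minus strand: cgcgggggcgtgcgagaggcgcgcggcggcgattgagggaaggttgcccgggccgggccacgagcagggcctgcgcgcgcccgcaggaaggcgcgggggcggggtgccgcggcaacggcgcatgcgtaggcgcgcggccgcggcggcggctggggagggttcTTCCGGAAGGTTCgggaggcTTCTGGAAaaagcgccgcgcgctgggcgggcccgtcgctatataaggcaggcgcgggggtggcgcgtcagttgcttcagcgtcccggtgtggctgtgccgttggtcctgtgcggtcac
HSP90AB1, chr6:44247693-44247992, plus strand: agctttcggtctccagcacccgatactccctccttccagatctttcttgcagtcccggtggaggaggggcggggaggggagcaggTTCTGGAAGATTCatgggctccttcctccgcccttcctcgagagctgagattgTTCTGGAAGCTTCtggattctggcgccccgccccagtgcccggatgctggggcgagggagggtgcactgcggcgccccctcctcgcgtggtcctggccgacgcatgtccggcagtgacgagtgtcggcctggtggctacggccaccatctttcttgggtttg
HSPA8, chr11:123062087-123062386, minus strand: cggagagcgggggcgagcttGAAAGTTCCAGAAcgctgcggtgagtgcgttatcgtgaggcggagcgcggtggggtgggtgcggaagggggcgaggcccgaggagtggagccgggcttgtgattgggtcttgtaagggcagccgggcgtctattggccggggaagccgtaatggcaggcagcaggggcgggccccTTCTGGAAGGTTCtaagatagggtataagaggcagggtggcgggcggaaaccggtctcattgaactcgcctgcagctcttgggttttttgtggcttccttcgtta
HSPA1B, chr6:31827488-31827787, plus strand: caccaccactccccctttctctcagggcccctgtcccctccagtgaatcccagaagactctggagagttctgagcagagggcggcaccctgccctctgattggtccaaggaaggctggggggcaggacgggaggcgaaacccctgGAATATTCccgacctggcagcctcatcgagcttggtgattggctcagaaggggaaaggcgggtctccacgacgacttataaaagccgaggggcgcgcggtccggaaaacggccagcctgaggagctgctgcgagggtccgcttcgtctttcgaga
HSPD1, chr2:197499791-197500090, minus strand: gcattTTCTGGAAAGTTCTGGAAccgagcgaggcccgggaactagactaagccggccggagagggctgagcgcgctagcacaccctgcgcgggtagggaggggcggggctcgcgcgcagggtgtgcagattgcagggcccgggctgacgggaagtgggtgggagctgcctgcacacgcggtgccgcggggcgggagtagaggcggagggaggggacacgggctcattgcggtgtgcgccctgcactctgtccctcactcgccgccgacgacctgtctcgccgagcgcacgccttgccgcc

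HSPD1 and HSPE1 lie head to head on chromosome 2, and the HSPE1 start site is 539 and 105 bases from the HSPD1 start sites listed. The stretch in capitals printed for HSPD1, in which 2 runs of 3 units overlap, lies upstream of one of its listed start sites and downstream of the other. It is outside the window listed for HSPE1.

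Each library held between 104609173 and 123789361 read pairs assigned to genes. Levels are given as CPM, in which each library's counts are scaled to one common total after TMM factors of 0.963 to 1.05. A gene was called when edgeR's quasi-likelihood test, adjusted over all 22007 genes by the Benjamini-Hochberg method, gave p under 0.05. The share of read pairs assigned to no gene feature was 5.01 to 6.22% in the CC-671 libraries and 3.78 to 4.24% in the DMSO libraries, and the part of this difference in the results below was not tested. All 5 epithelial markers were at 1 CPM or more, as were 4 of 5 fibroblast and 2 of 5 leukocyte markers. The hormone receptor genes ESR1 and PGR had too few counts to test, as had the T cell marker CD3E and the fibroblast marker DCN. In these bulk samples, fewer cells and less RNA per cell cannot be told apart. The library of replicate 1 of 10 µM at 6 h stood apart for stress genes. It had 18.7 CPM of HSPA6, a strictly heat-inducible HSP70, against 1.85 and 2.43 CPM in the other 10 µM libraries and 0.634 and 0.628 CPM with DMSO. The same library was the highest of its group for 7 of the 10 genes (HSPA1A, HSPA1B, HSPH1, HSP90AA1, HSP90AB1, DNAJB1 and HSPD1). The share of all tested genes that were highest in it was not counted, so these 7 alone do not set the library apart. Because of the HSPA6 level, several results at 10 µM and 6 h are also given without this library.

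In DMSO at 6 h the genes covered a wide range of levels. Per kilobase of exon (GENCODE 29 lengths), HSP90AB1 stood highest at 765 ± 9.61 CPM per kb (SD, n = 2), followed by HSPA8 at 735 ± 16.8, HSP90AA1 at 523 ± 17.4 and HSPD1 at 227 ± 3.97 CPM per kb. HSPB1 had 93.1 ± 5.19, DNAJB1 77.8 ± 3.80, HSPH1 51.6 ± 0.645 and HSPE1 21.7 ± 0.0801 CPM per kb. HSPA1B, at 0.576 ± 0.00401, and HSPA1A, at 0.252 ± 0.000706 CPM per kb, were far below the rest. No neighbours in this order overlapped between the 2 libraries. Pairs that map to several places were not counted, and 67.3% of HSPA1A and 68.8% of HSPA1B 100-base windows are shared between them. Their levels and their order are therefore uncertain. HSPE1 and HSPD1 overlap in the annotation, and pairs in the overlap may be missing from their levels. The order changed in 2 places after 6 h of CC-671: DNAJB1 then averaged above HSPB1 at both doses, at 114 ± 3.87 CPM per kb with 3 µM and 120 ± 19.5 CPM per kb with 10 µM (SD, n = 3 each), with overlapping libraries, and HSPA1A and HSPA1B overlapped. HSPA8 and HSP90AA1 overlapped at 3 µM at both times. Together the 10 genes made up 10469 ± 155 CPM with DMSO (SD, n = 2), 11542 ± 599 CPM with 3 µM and 10921 ± 202 CPM with 10 µM (SD, n = 3 each) at 6 h. At 24 h the sums were 9602 ± 109 CPM with DMSO, 8478 ± 123 CPM with 3 µM and 8357 ± 120 CPM with 10 µM, so that every CC-671 library lay below both DMSO libraries.

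**Figure D1:**
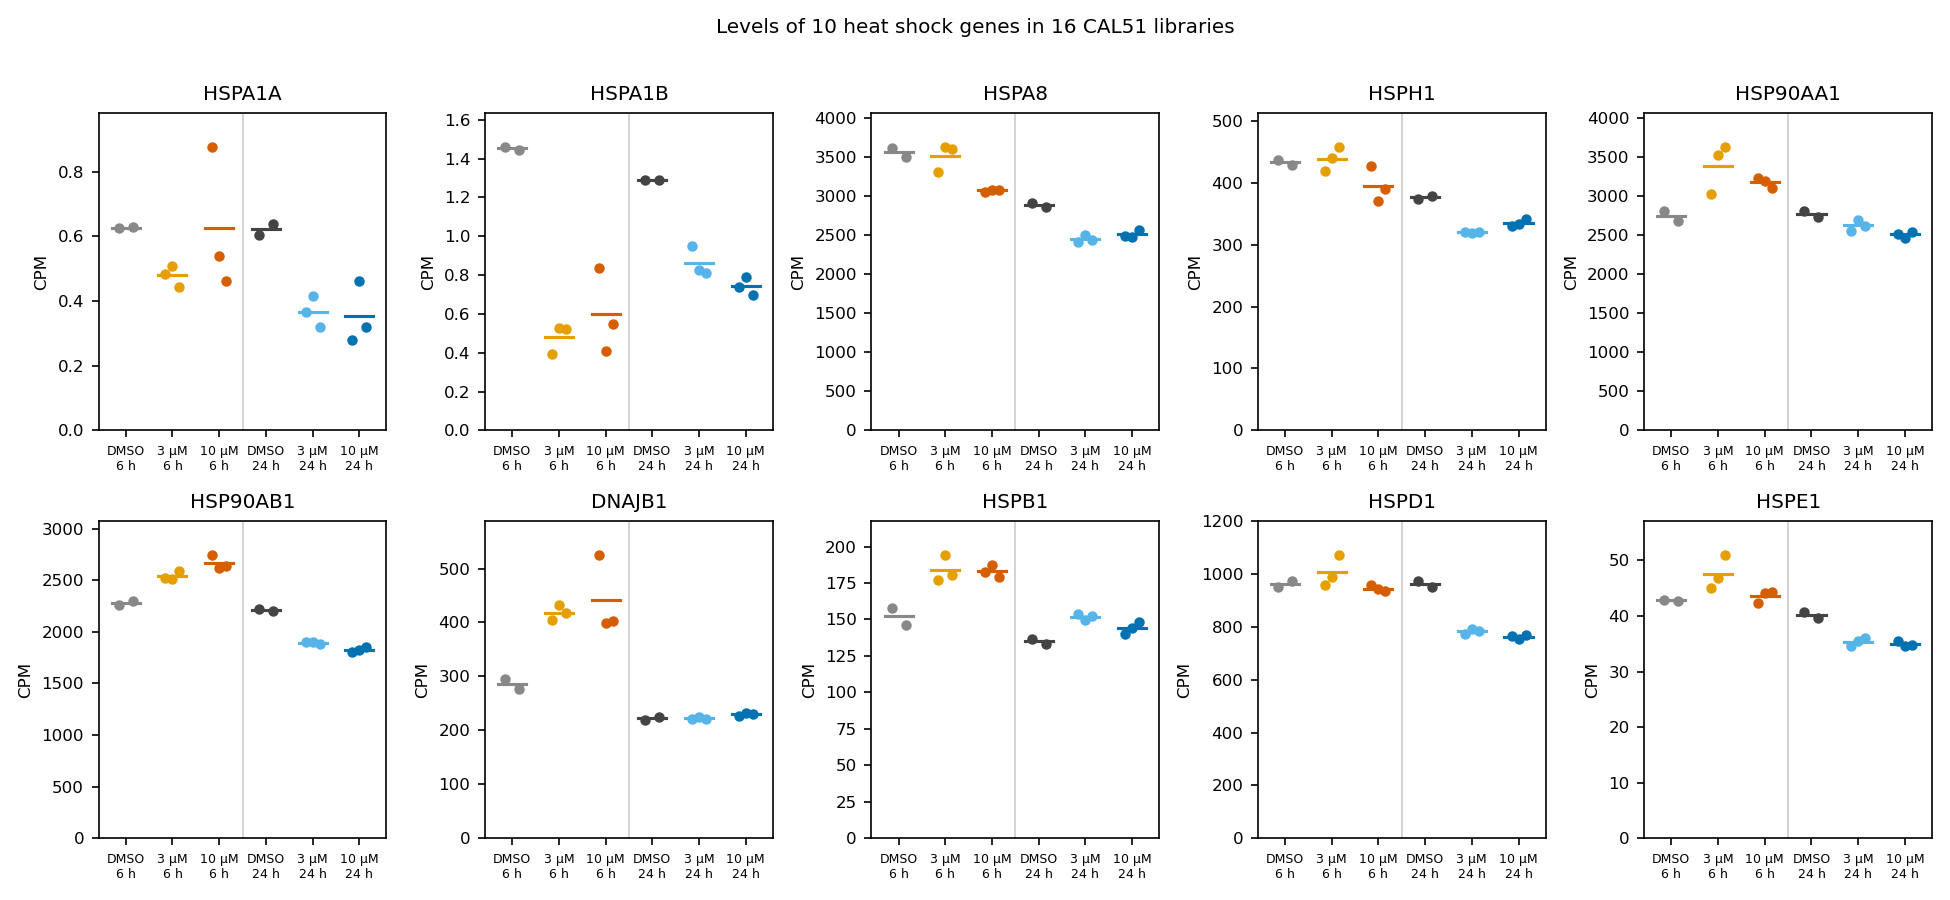
Level in CPM (y axis, from 0) of the 10 heat shock genes in each of the 16 libraries, by dose within 6 h and 24 h (x axis). Points are libraries and lines are group means. DNAJB1 stands above DMSO at both doses at 6 h, HSPA1B below DMSO at both times, and the 10 µM library at 525 CPM of DNAJB1 is replicate 1.

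After 6 h the genes divided. DNAJB1, both cytosolic HSP90 genes and HSPB1 rose at 3 and 10 µM, HSPE1 rose at 3 µM, and HSPA1B fell at both doses. At 3 µM, 5 genes rose and 1 fell, where 63.2% of all tested genes were called, 31.6% as higher and 31.6% as lower. At 10 µM, 4 rose and 3 fell, where 67.6% of all tested genes were called, 34% as higher and 33.6% as lower. CC-671 and DMSO libraries did not overlap for 7 genes at each dose, against 72.7% of all tested genes at 3 µM and 74.6% at 10 µM. These shares are close to those of the 10 genes, so the counts alone do not set them apart. The median log2 fold change over the 10 genes was 0.11 at 3 µM and 0.02 at 10 µM, against 0.02 and 0.01 over all tested genes.

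DNAJB1, the HSP40 that stimulates the ATPase of HSP70, had the largest rise among the 10. Its level at 6 h was 296 and 276 CPM with DMSO, 404, 433 and 418 CPM with 3 µM, and 525, 400 and 402 CPM with 10 µM. All 6 CC-671 libraries were above both DMSO libraries, and the highest was replicate 1 of 10 µM. The log2 fold change was 0.55 ± 0.10 at 3 µM (SE, adjusted p = 0.000424) and 0.63 ± 0.10 at 10 µM (adjusted p = 0.000132). Without replicate 1 of 10 µM it was 0.48 ± 0.04 at 10 µM (adjusted p = 2.22e-12). At 24 h DNAJB1 had 220 and 225 CPM with DMSO, 221, 225 and 222 CPM with 3 µM, and 227, 232 and 230 CPM with 10 µM. The 3 µM libraries overlapped with DMSO, and the 10 µM libraries lay slightly above it. Neither change was called at 24 h, with log2 values of 0.00 ± 0.10 at 3 µM and 0.05 ± 0.10 at 10 µM. These SE come from a spread fitted over all 16 libraries, replicate 1 of 10 µM at 6 h among them. They are therefore not the spread of the 24 h libraries alone. With only the groups compared in the fit, the 10 µM value was 0.06 and was called (adjusted p = 0.00349). DNAJB1 overlaps the gene TECR on the opposite strand, and whether the counting used the strand is not given in the sources used here. TECR rose by 0.29 ± 0.04 at 3 µM and 0.32 ± 0.04 at 10 µM at 6 h, and averaged 68.4 CPM over all libraries.

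The 5 genes whose group means followed DNAJB1 most closely over the 6 groups were NDUFAF4, GRPEL1, RNPS1, ANKRD54 and EXOSC4 (Pearson's r of 0.997 to 0.998 among 13059 genes searched, a description over 6 points from the same libraries). GRPEL1, a nucleotide exchange factor of mitochondrial HSP70, averaged 70.6, 91.4 and 95.2 CPM with DMSO, 3 µM and 10 µM at 6 h, and 61.7, 60.7 and 61.0 CPM at 24 h.

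HSP90AB1, the constitutive cytosolic HSP90, had 2261 and 2301 CPM with DMSO at 6 h, 2525, 2509 and 2592 CPM with 3 µM, and 2744, 2615 and 2636 CPM with 10 µM. The groups followed the dose without overlap. It rose by 0.16 ± 0.03 at 3 µM (adjusted p = 3.95e-05) and by 0.22 ± 0.03 at 10 µM (adjusted p = 1.39e-07). Without replicate 1 of 10 µM the rise at 10 µM was 0.19 ± 0.03. At 24 h HSP90AB1 had 2217 and 2205 CPM with DMSO, 1898, 1900 and 1881 CPM with 3 µM, and 1808, 1821 and 1856 CPM with 10 µM. Every CC-671 library was now below both DMSO libraries. The log2 fold change was -0.22 ± 0.03 at 3 µM (adjusted p = 1.91e-07) and -0.27 ± 0.03 at 10 µM (adjusted p = 4.17e-09). Some read pairs of this gene could have been counted for its processed copy HSP90AB3P. The 4 HSP90AB copies together held 4.16% as many pairs as HSP90AB1, and HSP90AB3P itself changed by 0.18 ± 0.04, 0.12 ± 0.04, -0.30 ± 0.04 and -0.29 ± 0.04 at 3 µM and 10 µM at 6 h and at 3 µM and 10 µM at 24 h.

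HSP90AA1, the stress-inducible cytosolic HSP90, had 2810 and 2681 CPM with DMSO at 6 h, 3021, 3522 and 3628 CPM with 3 µM, and 3227, 3188 and 3108 CPM with 10 µM. All CC-671 libraries were above both DMSO libraries, and the 3 µM libraries were the most spread. It rose by 0.30 ± 0.05 at 3 µM (adjusted p = 0.000107) and by 0.21 ± 0.05 at 10 µM (adjusted p = 0.00262). At 24 h HSP90AA1 had 2812 and 2726 CPM with DMSO, 2554, 2695 and 2622 CPM with 3 µM, and 2514, 2466 and 2544 CPM with 10 µM. The log2 value of -0.08 ± 0.05 at 3 µM was not called (adjusted p = 0.231), although with only the groups compared in the fit it was -0.06 and called (adjusted p = 0.0233). The log2 value of -0.14 ± 0.05 at 10 µM was called (adjusted p = 0.0295), and the call ended without either DMSO library (adjusted p = 0.157 without replicate 1 and 0.0524 without replicate 2), without 10 µM replicate 1 (0.0533) or 2 (0.0738), with a stricter count filter of CPM of at least 1 in at least 5 libraries (0.0861), with limma-voom (0.0659) and with library totals alone, without a TMM factor (0.605, called no scaling factor below).

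HSPB1 (HSP27), a small heat shock protein that holds unfolded proteins without using ATP, was the only one of the 10 called higher at all 4 comparisons with DMSO. It had 158 and 146 CPM with DMSO at 6 h, 177, 194 and 180 CPM with 3 µM, and 182, 187 and 179 CPM with 10 µM. The 24 h levels were 137 and 133 CPM with DMSO, 154, 149 and 153 CPM with 3 µM, and 140, 144 and 148 CPM with 10 µM. At both times every CC-671 library was above both DMSO libraries. The rise was 0.27 ± 0.04 at each dose at 6 h (adjusted p = 5.85e-07 at 3 µM and 7.19e-07 at 10 µM) and 0.17 ± 0.04 at 3 µM at 24 h (adjusted p = 0.000492). At 10 µM and 24 h it was 0.09 ± 0.04 (adjusted p = 0.0376). That last call ended with RLE scaling (adjusted p = 0.0612), DESeq2 (0.0777) and the replicate block (0.0552), and without DMSO replicate 1 (0.0663) or 2 (0.233) or 10 µM replicate 2 (0.0817) or 3 (0.154).

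HSPA1A and HSPA1B, the inducible cytosolic HSP70 genes, had few counted read pairs, 35 to 103 and 44 to 175 per library. They are near copies: 67.3% of the 100-base windows of HSPA1A transcripts occur letter for letter in HSPA1B, and 68.8% the other way. Read pairs that map to several places, 10.3 to 11.9% of each library, were not counted for any gene, so the 2 genes are uncertain singly. Their sum is given first, but it lacks the pairs that map to both genes as well, so its level is uncertain too. The sum at 6 h was 2.09 and 2.07 CPM with DMSO, 0.879, 1.04 and 0.969 CPM with 3 µM, and 1.71, 0.948 and 1.01 CPM with 10 µM. At 24 h it was 1.90 and 1.93 CPM with DMSO, 1.32, 1.24 and 1.13 CPM with 3 µM, and 1.02, 1.25 and 1.02 CPM with 10 µM. All 12 CC-671 libraries were below the DMSO libraries of their time, and the one nearest to DMSO was replicate 1 of 10 µM at 6 h. The log2 fold change of the sum was -1.11 ± 0.17 at 3 µM and -0.76 ± 0.16 at 10 µM at 6 h (adjusted p = 5.76e-06 and 0.000323), and -1.10 ± 0.13 at 10 µM without replicate 1 (adjusted p = 1.83e-08). At 24 h it was -0.64 ± 0.17 and -0.81 ± 0.17 (adjusted p = 0.00254 and 0.000288).

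Singly, HSPA1B was called lower at 6 h and HSPA1A was not. HSPA1B had 1.46 and 1.45 CPM with DMSO, 0.395, 0.526 and 0.524 CPM with 3 µM, and 0.834, 0.410 and 0.546 CPM with 10 µM. The log2 fold change was -1.59 ± 0.18 at 3 µM (adjusted p = 7.85e-09) and -1.27 ± 0.17 at 10 µM (adjusted p = 1.86e-07), and -1.61 ± 0.16 at 10 µM without replicate 1. HSPA1A had 0.626 and 0.628 CPM with DMSO, 0.484, 0.509 and 0.444 CPM with 3 µM, and 0.877, 0.538 and 0.463 CPM with 10 µM. Its 10 µM libraries lay on both sides of DMSO, and neither dose was called at 6 h (-0.39 ± 0.22 and 0.01 ± 0.21, and -0.33 ± 0.20 at 10 µM without replicate 1). At 24 h both were lower in every CC-671 library than in either DMSO library. HSPA1A fell by 0.76 at 3 µM and 0.82 at 10 µM on the log2 scale, and HSPA1B by 0.58 and 0.80 (adjusted p between 0.000184 and 0.00646). The neighbouring HSP70 gene HSPA1L fell at 6 h as well, with log2 values of -1.34 ± 0.18 and -2.01 ± 0.19, and was not called at 24 h.

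HSPA8 (HSC70), the constitutive cytosolic HSP70, had 3621 and 3506 CPM with DMSO at 6 h, 3314, 3628 and 3599 CPM with 3 µM, and 3048, 3084 and 3082 CPM with 10 µM. The 3 µM libraries overlapped with DMSO and the 10 µM libraries were below it. The log2 value was -0.02 ± 0.03 at 3 µM (adjusted p = 0.623) and -0.21 ± 0.03 at 10 µM (adjusted p = 2.77e-06). At 24 h HSPA8 had 2905 and 2865 CPM with DMSO, 2415, 2496 and 2431 CPM with 3 µM, and 2490, 2479 and 2569 CPM with 10 µM. It fell at both doses, with log2 values of -0.24 ± 0.03 (adjusted p = 8.49e-07) and -0.20 ± 0.03 (adjusted p = 1.05e-05). Its 17 copies together held 0.979% as many pairs, and HSPA8P1 changed by -0.43 ± 0.08 and -0.32 ± 0.08 at 24 h.

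HSPH1 (HSP110), which exchanges nucleotide on HSP70, followed a similar order. It had 437 and 429 CPM with DMSO at 6 h, 418, 440 and 458 CPM with 3 µM, and 426, 370 and 390 CPM with 10 µM. The 24 h levels of HSPH1 were 374 and 379 CPM with DMSO, 320, 319 and 320 CPM with 3 µM, and 330, 333 and 341 CPM with 10 µM. At 6 h the 3 µM libraries lay on both sides of DMSO (0.02 ± 0.04, adjusted p = 0.726) and the 10 µM libraries below it (-0.13 ± 0.04, adjusted p = 0.00822). The 10 µM call at 6 h ended with the stricter count filter (adjusted p = 0.0902) and with only the groups compared in the fit (0.0639), and the log2 value was -0.20 ± 0.04 without 10 µM replicate 1. At 24 h all CC-671 libraries were below DMSO, with log2 values of -0.24 ± 0.04 at 3 µM (adjusted p = 3.63e-05) and -0.17 ± 0.04 at 10 µM (adjusted p = 0.00113). The 10 µM call at 24 h ended with no scaling factor (-0.06, adjusted p = 0.22).

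The mitochondrial folding chamber genes changed mainly at 24 h. HSPD1 (HSP60) had 951 and 975 CPM with DMSO at 6 h, 958, 989 and 1072 CPM with 3 µM, and 957, 942 and 936 CPM with 10 µM, with overlap between DMSO and both doses. At 24 h it had 972 and 951 CPM with DMSO, 775, 793 and 784 CPM with 3 µM, and 765, 755 and 770 CPM with 10 µM. All 6 CC-671 libraries at 24 h were below both DMSO libraries. Its log2 values were 0.06 ± 0.03 and -0.03 ± 0.03 at 6 h, neither of them called, and -0.29 ± 0.03 (adjusted p = 3.08e-08) and -0.33 ± 0.03 (adjusted p = 2.58e-09) at 24 h. At 3 µM and 6 h the value was called without 3 µM replicate 1 (0.09, adjusted p = 0.0282), with no scaling factor (adjusted p = 0.0144) and with the stricter count filter (0.0163).

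HSPE1 (HSP10), the lid of the chamber, had 42.9 and 42.7 CPM with DMSO at 6 h, 45.1, 46.8 and 51.0 CPM with 3 µM, and 42.4, 44.1 and 44.3 CPM with 10 µM. After 24 h it had 40.7 and 39.7 CPM with DMSO, 34.6, 35.5 and 36 CPM with 3 µM, and 35.4, 34.6 and 34.8 CPM with 10 µM. At 6 h the 3 µM libraries were above DMSO and the 10 µM libraries lay on both sides of it, and at 24 h all CC-671 libraries were below it. HSPE1 rose by 0.15 ± 0.04 at 3 µM and 6 h (adjusted p = 0.00185) and was not called at 10 µM (0.03 ± 0.04). At 24 h it fell at both doses, with log2 values of -0.18 ± 0.04 (adjusted p = 0.000375) and -0.20 ± 0.04 (adjusted p = 0.00012). The 3 µM call at 24 h ended with no scaling factor (-0.08, adjusted p = 0.0639). HSPD1 and HSPE1 overlap each other in the annotation, so pairs in the overlap may have been dropped or shared. Copies of HSPD1 held 6.29% as many pairs as HSPD1, and the most abundant, HSPD1P1, changed by -0.32 ± 0.05 at 3 µM and -0.36 ± 0.05 at 10 µM at 24 h. The genes whose group means followed HSPD1 most closely were TIMM8BP2, SERBP1P6, PLS1, HMGN1P4 and AMD1 (r of 0.995 to 0.997 over 6 groups).

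**Figure D2:**
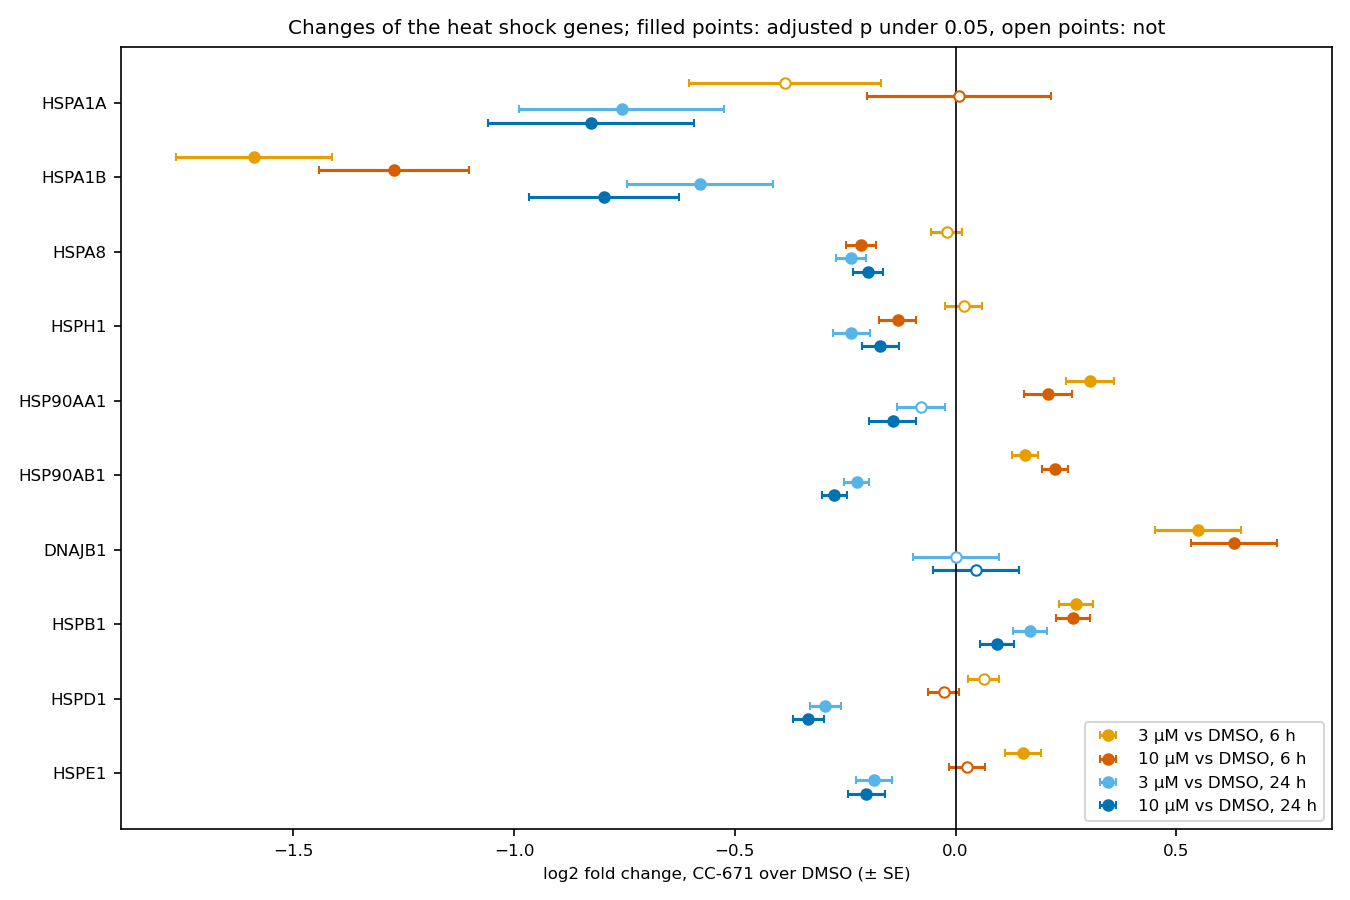
Log2 fold change of CC-671 over DMSO (x axis, bars are SE) for the 10 genes (y axis) at each dose and time, with filled points for adjusted p under 0.05. The 24 h points of most genes lie left of 0, HSPB1 lies right of 0 throughout, and DNAJB1 is right of 0 only at 6 h beyond its SE at both doses.

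Over the 10 genes, 24 h of CC-671 gave 1 rise and 7 falls at 3 µM, where 60.6% of all tested genes were called, 29.7% as higher and 30.9% as lower. At 10 µM there was 1 rise and 8 falls, where 63.6% of all tested genes were called, 31.3% as higher and 32.3% as lower. The median log2 fold change over the 10 genes was -0.23 at 3 µM and -0.20 at 10 µM, against 0.00 and 0.01 over all tested genes. CC-671 and DMSO libraries did not overlap for 9 genes at 3 µM and for 10 at 10 µM, against 75.4% and 77.5% of all tested genes. TMM factors at 24 h were 1.04 to 1.05 in the CC-671 libraries and 0.969 to 0.971 in the DMSO libraries. With no scaling factor the median of all genes moved up by 0.10 at 3 µM and 0.11 at 10 µM, and falls numbered 6 of the 10 genes at each dose. The summed fibroblast markers (5 genes, 4 at 1 CPM or more, DCN too low to test) were 54.3 to 65.6 CPM in the CC-671 libraries at 24 h and 110 to 111 CPM with DMSO. The summed leukocyte markers (5 genes, 2 at 1 CPM or more, CD3E too low to test) were 5.98 to 7.46 CPM with CC-671 and 13 to 13.6 CPM with DMSO, and the part of either in the results was not tested.

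The effect at 24 h was lower than the effect at 6 h for 7 of the 10 genes at 3 µM and higher for 1, HSPA1B, where 49.3% of all tested genes had a called difference in effect, 25.6% as higher and 23.7% as lower. At 10 µM it was also lower for 7 genes and higher for none, where 54% of all tested genes were called, 27.6% as higher and 26.4% as lower. Without replicate 1 of 10 µM at 6 h it was lower for 6 genes and higher for 1, HSPA1B (0.82, adjusted p = 0.00219). DNAJB1 differed by -0.55 ± 0.14 at 3 µM (adjusted p = 0.00597) and -0.58 ± 0.14 at 10 µM (adjusted p = 0.00364), and by -0.43 ± 0.05 at 10 µM without replicate 1 at 6 h. HSP90AB1 differed by -0.38 ± 0.04 and -0.50 ± 0.04 (adjusted p = 1.36e-08 and 5.29e-11). Its effect turned sign between 6 and 24 h at both doses, with calls at both times. HSP90AA1 and HSPE1 turned sign too, with calls at both times only at 10 µM for HSP90AA1 and only at 3 µM for HSPE1. These 24 h calls of HSP90AA1 and HSPE1 ended under some alternatives. HSP90AA1 differed by -0.38 ± 0.08 and -0.35 ± 0.08, HSPD1 by -0.36 ± 0.05 and -0.31 ± 0.05, and HSPE1 by -0.34 ± 0.06 and -0.23 ± 0.06 (adjusted p of 0.0016 or less). HSPA8 and HSPH1 differed at 3 µM (-0.22 ± 0.05 and -0.25 ± 0.06) and not detectably at 10 µM (0.02 ± 0.05 and -0.04 ± 0.06), where they were already lower at 6 h. The summed HSPA1A and HSPA1B signal did not differ detectably between times (0.48 ± 0.24, adjusted p = 0.107, and -0.05 ± 0.24, adjusted p = 0.882), and at 10 µM it was 0.29 ± 0.17 without replicate 1 at 6 h (adjusted p = 0.163). The call for HSPA1A alone at 10 µM (-0.83 ± 0.31, adjusted p = 0.0261) ended without replicate 1 of 10 µM at 6 h (-0.49), without 10 µM replicate 1 or 3 at 24 h (adjusted p = 0.0879 and 0.0618) and without any 1 of the 4 DMSO libraries (0.0524 to 0.0757). HSPB1 differed at 10 µM (-0.17 ± 0.05, adjusted p = 0.00873), a call that ended with no scaling factor (adjusted p = 0.237), without DMSO 6 h replicate 2 (0.106) and without DMSO 24 h replicate 1 (0.0525). At 3 µM it was called without DMSO 6 h replicate 1 (-0.15, adjusted p = 0.042).

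**Figure D3:**
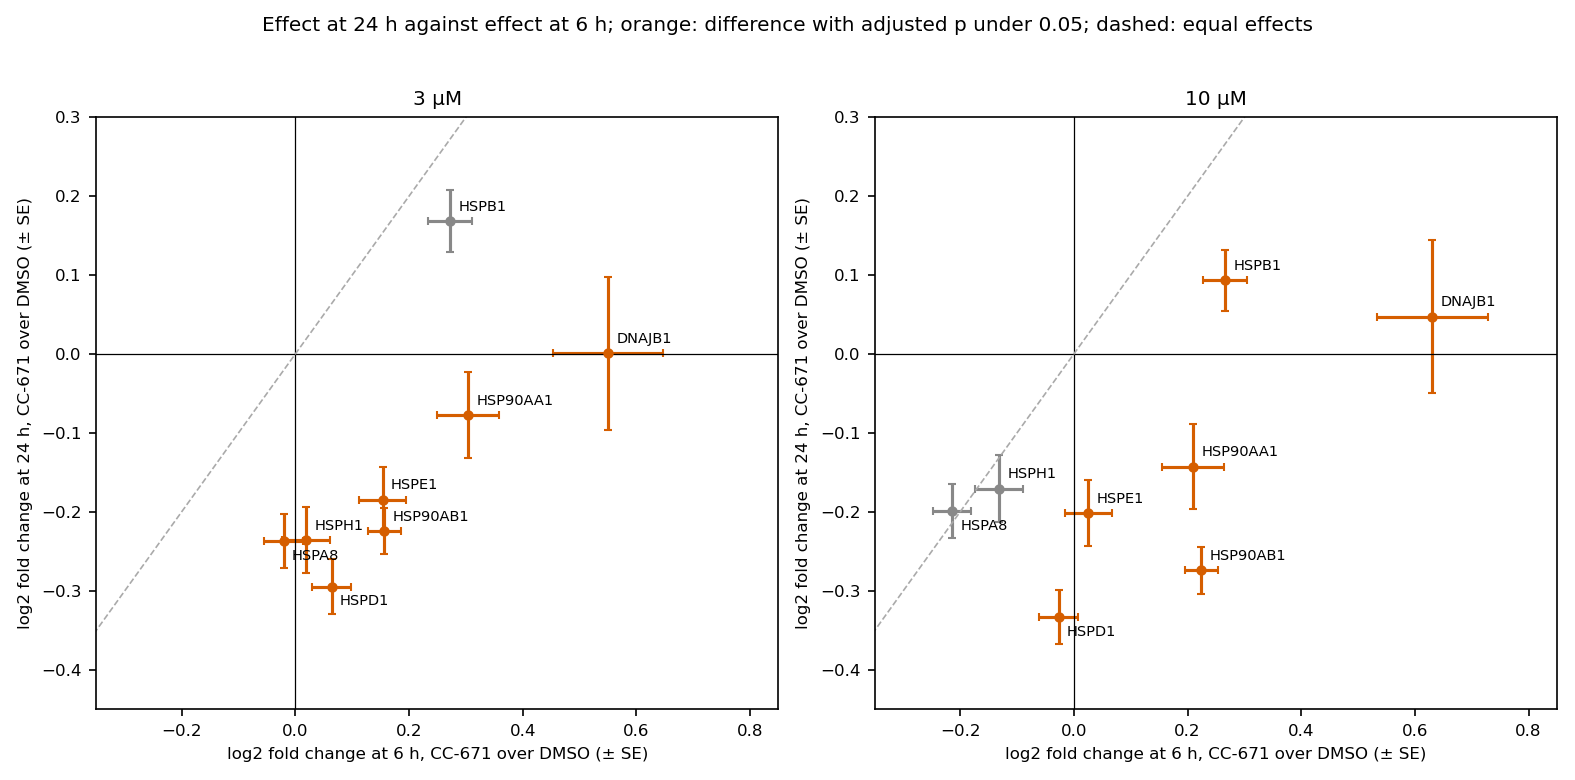
Log2 fold change at 24 h (y axis) against that at 6 h (x axis), each CC-671 over DMSO with SE bars, for 8 of the genes at 3 µM (left) and 10 µM (right). HSPA1A and HSPA1B are left out because they rest on few pairs and pairs that map to both were not counted. With the exception of HSPA8 at 10 µM, every gene shown lies below the dashed line of equal effects. HSP90AB1, HSP90AA1 and HSPE1 lie above 0 at 6 h and below 0 at 24 h at both doses, and HSPD1 and HSPH1 do so at 3 µM.

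The doses themselves differed at 6 h for 4 genes, all lower at 10 µM than at 3 µM, where 24.9% of all tested genes were called, 12.9% as lower. The libraries of the doses did not overlap for 4 genes, against 32.9% of all tested genes. HSPA8 was at 3048 to 3084 CPM with 10 µM and 3314 to 3628 CPM with 3 µM (-0.19 ± 0.03, adjusted p = 3.28e-05). HSPH1 differed by -0.15 ± 0.04, HSPE1 by -0.13 ± 0.04 and HSPD1 by -0.09 ± 0.03 (adjusted p of 0.00497, 0.0109 and 0.0343). Only the HSPA8 call held when the fit had these groups alone. The HSPD1 and HSPE1 calls also ended without 3 µM replicate 3 (adjusted p = 0.31 and 0.127), HSPE1 without 10 µM replicate 1 (0.0595), and HSPD1 without 10 µM replicate 2 (0.0515) or 3 (0.0998) and with the stricter count filter (0.0601). HSP90AB1 was higher at 10 µM in every library, and its difference of 0.07 ± 0.03 missed the threshold (adjusted p = 0.0595), while DESeq2 (0.043) and limma-voom (0.018) called it. It was called too without 3 µM replicate 3 (0.0391), without 10 µM replicate 2 (0.0211) and with the stricter count filter (0.0132). HSP90AA1 was called lower at 10 µM without 3 µM replicate 1 (-0.17, adjusted p = 0.000222) and with no count filter (0.00975). HSPA1A was called higher at 10 µM without 10 µM replicate 3 (0.57, adjusted p = 0.0362), and HSPA1B without 10 µM replicate 2 (0.53, adjusted p = 0.03). DNAJB1 showed no called difference between doses (0.08 ± 0.09), and without 10 µM replicate 1 the value was -0.06 ± 0.03.

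At 24 h no gene of the 10 was called between doses by edgeR, where 6.35% of all tested genes were called (2.49% higher, 3.85% lower), and 1 (HSPB1) had an unadjusted p under 0.05. limma-voom and DESeq2 called 0 as well. The libraries of the doses did not overlap for 7 genes, against 31.3% of all tested genes. The differences of the 8 genes other than HSPA1A and HSPA1B lay between -0.08 ± 0.03 (HSPB1) and 0.07 ± 0.04 (HSPH1). With only these groups in the fit, HSPH1 was called higher and HSP90AA1 and HSPB1 lower at 10 µM.

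Time in vehicle alone also moved 4 of the genes, all lower at 24 h than at 6 h, where 20.5% of all tested genes were called, 9.55% as lower. The libraries of the times did not overlap for 7 genes, against 59.4% of all tested genes. HSPA8 was at 2905 and 2865 CPM at 24 h, against 3621 and 3506 CPM at 6 h, a log2 value of -0.30 ± 0.04 (adjusted p = 1.15e-06). HSPH1 differed by -0.20 ± 0.05 (adjusted p = 0.0027), HSPB1 by -0.17 ± 0.04 (adjusted p = 0.00408) and DNAJB1 by -0.36 ± 0.11 (adjusted p = 0.0342). The spread behind the DNAJB1 SE was fitted over all 16 libraries, replicate 1 of 10 µM at 6 h among them. The DNAJB1 call ended when any 1 of the 4 DMSO libraries was left out (adjusted p between 0.0663 and 0.174). The HSPB1 call ended without replicate 1 at 6 h (0.126) and without replicate 2 at 24 h (0.065). HSP90AA1 and HSPD1 were at similar levels at both times, with log2 values of 0.01 ± 0.06 and -0.00 ± 0.04.

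Other genes of the heat shock response and of protein folding were counted in 8 lists, with no claim that any list differs from genes at large. Some genes stand in more than 1 list, and list medians are log2 fold changes at 3 and 10 µM at 6 h and then at 3 and 10 µM at 24 h, beside an all-gene median between 0.00 and 0.02. Of 4 genes for heat shock factors and their binding protein, 2 rose and 2 fell at each dose at 6 h, and 2 rose at 3 µM and 1 at 10 µM at 24 h (list medians -0.06, -0.04, 0.04 and 0.02). HSF1 fell at 6 h. It had 110 and 106 CPM with DMSO, 90.1, 93.3 and 92.3 CPM with 3 µM, and 93.6, 91.1 and 94.6 CPM with 10 µM (-0.23 ± 0.03 and -0.21 ± 0.03). HSBP1, a small protein that binds heat shock factor trimers, rose by 0.47 ± 0.04 and 0.46 ± 0.04 at 6 h. HSF4 was lower at 6 h (-0.41 ± 0.11 and -0.42 ± 0.11) and higher at 24 h (0.42 ± 0.11 and 0.54 ± 0.11).

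Of 19 further genes known as heat-inducible targets of HSF1, 9 rose and 4 fell at 3 µM and 7 rose and 7 fell at 10 µM at 6 h. At 24 h, 4 rose and 6 fell at 3 µM, and 4 rose and 8 fell at 10 µM. The list medians were 0.10, 0.03, -0.06 and -0.08. BAG3, an HSP70 cofactor, had 75.2 and 70.7 CPM with DMSO at 6 h, 105, 120 and 111 CPM with 3 µM, and 150, 111 and 111 CPM with 10 µM, and rose by 0.62 ± 0.12 and 0.77 ± 0.12. The highest of these was the same replicate 1 of 10 µM, and without it the rise at 10 µM was 0.60 ± 0.05. Between doses at 6 h BAG3 differed by 0.15 with that library and -0.01 without it, neither of them called. HSPA6 rose at 10 µM (3.61 ± 1.08, adjusted p = 0.0119), and without that library the value was 1.75 ± 0.37 (adjusted p = 0.00163). At 3 µM HSPA6 had 1.80, 1.67 and 2.05 CPM, all above DMSO, and was not called (1.54 ± 1.24, adjusted p = 0.307). That SE comes from a spread fitted over all 16 libraries, replicate 1 of 10 µM at 6 h among them. It is therefore not the spread of the 3 µM and DMSO libraries alone. CHORDC1 and PTGES3, HSP90 cofactors, fell at 6 h by 0.30 and 0.29 at 3 µM and by 0.70 and 0.50 at 10 µM on the log2 scale. CRYAB, a small heat shock protein, had 1.67 and 1.53 CPM with DMSO at 24 h, 4.77, 4.38 and 4.52 CPM with 3 µM, and 5.59, 5.86 and 6.29 CPM with 10 µM. It followed the dose without overlap and rose by 1.51 ± 0.10 and 1.88 ± 0.10.

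Among 20 tested genes of the HSP70 and HSP40 families and their cofactors, 11 rose and 6 fell at 3 µM and 10 rose and 7 fell at 10 µM at 6 h. At 24 h, 5 rose and 7 fell at 3 µM, and 6 rose and 8 fell at 10 µM, with list medians of 0.16, 0.08, -0.02 and -0.03. HSPA4, an HSP110 relative of HSPH1 singled out after its values were seen, rose at 6 h by 0.44 ± 0.03 and 0.45 ± 0.03, and DNAJB4, an HSP40 close to DNAJB1, by 0.45 ± 0.05 and 0.69 ± 0.05. Without replicate 1 of 10 µM the DNAJB4 rise at 10 µM was 0.60 ± 0.04. DNAJB5, of the same subfamily, fell at 6 h (-0.90 ± 0.05 and -0.96 ± 0.05) and at 24 h (-0.78 ± 0.05 and -0.79 ± 0.05). BAG1, an HSP70 nucleotide exchange factor, rose by 0.57 ± 0.04 and 0.67 ± 0.04 at 6 h and by 0.44 ± 0.04 and 0.60 ± 0.04 at 24 h.

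Among the HSP90 cochaperones and the subunits of TRiC, the cytosolic chaperonin, falls outnumbered rises. Of 15 cochaperones, 4 rose and 8 fell at 3 µM and 2 rose and 10 fell at 10 µM at 6 h, and 2 rose and 10 fell and 2 rose and 12 fell at 24 h, with list medians of -0.08, -0.22, -0.13 and -0.16. PPID, a cyclophilin partner of HSP90, had 73.1 and 68.9 CPM with DMSO at 6 h, 24.4, 26.1 and 28.5 CPM with 3 µM, and 21.5, 20.8 and 21.1 CPM with 10 µM (-1.43 ± 0.04 and -1.75 ± 0.04). FKBP5, which acts on steroid receptors bound to HSP90, fell by 1.04 and 1.41 at 6 h and by 0.86 and 1.05 at 24 h on the log2 scale. Of 8 TRiC subunits, 1 rose and 4 fell at 3 µM and 5 fell at 10 µM at 6 h, and all 8 fell at each dose at 24 h, with list medians of -0.13, -0.15, -0.21 and -0.22. CCT7 fell by 0.71 and 0.78 at 6 h and by 0.50 and 0.61 at 24 h on the log2 scale.

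Of 14 mitochondrial chaperone and protease genes besides HSPD1 and HSPE1, 6 rose and 7 fell at 3 µM and 4 rose and 7 fell at 10 µM at 6 h. At 24 h, 6 rose and 4 fell at 3 µM, and 7 rose and 3 fell at 10 µM, with list medians of -0.06, -0.11, 0.03 and 0.04. HSPA9, the mitochondrial HSP70, had 742 and 731 CPM with DMSO at 24 h, 933, 972 and 954 CPM with 3 µM, and 1008, 998 and 1023 CPM with 10 µM. It rose by 0.37 ± 0.03 and 0.46 ± 0.03 at 24 h, where HSPD1 and HSPE1 fell. HSPA9 was singled out after its values were seen. LONP1, the matrix protease, rose at 24 h (0.63 ± 0.03 and 0.78 ± 0.03), and TRAP1, the mitochondrial HSP90, fell (-0.67 ± 0.03 and -0.79 ± 0.03). CLPX, the unfoldase of the ClpXP protease, fell at 6 h by 1.32 and 1.60 on the log2 scale.

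For the remaining lists, 2 of 6 tested small heat shock protein genes rose and 1 fell in the first 3 comparisons, and 3 rose and 1 fell at 10 µM and 24 h (list medians 0.50, 0.62, 0.48 and 0.88). The fall was HSPB11 each time. HSPB3 and HSPB6 had average log2 CPM of only -0.82 and -1.21, so these medians rest in part on genes with few pairs. Of 15 ER chaperone genes, which belong to a separate response, 12 rose and 3 fell at 3 µM and 12 rose and 1 fell at 10 µM at 6 h, with list medians of 0.27 and 0.37. At 24 h 1 rose and 4 fell at 3 µM, and 2 rose and 3 fell at 10 µM, with list medians of -0.03 and 0.01. Without replicate 1 of 10 µM at 6 h, the counts at 10 µM and 6 h were the same for the 10 heat shock genes and for all 8 lists. HSPA5 (BiP), the main ER HSP70, had 3029 CPM in that library and 2246 and 1994 CPM in the other 10 µM libraries at 6 h.

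**Figure D4:**
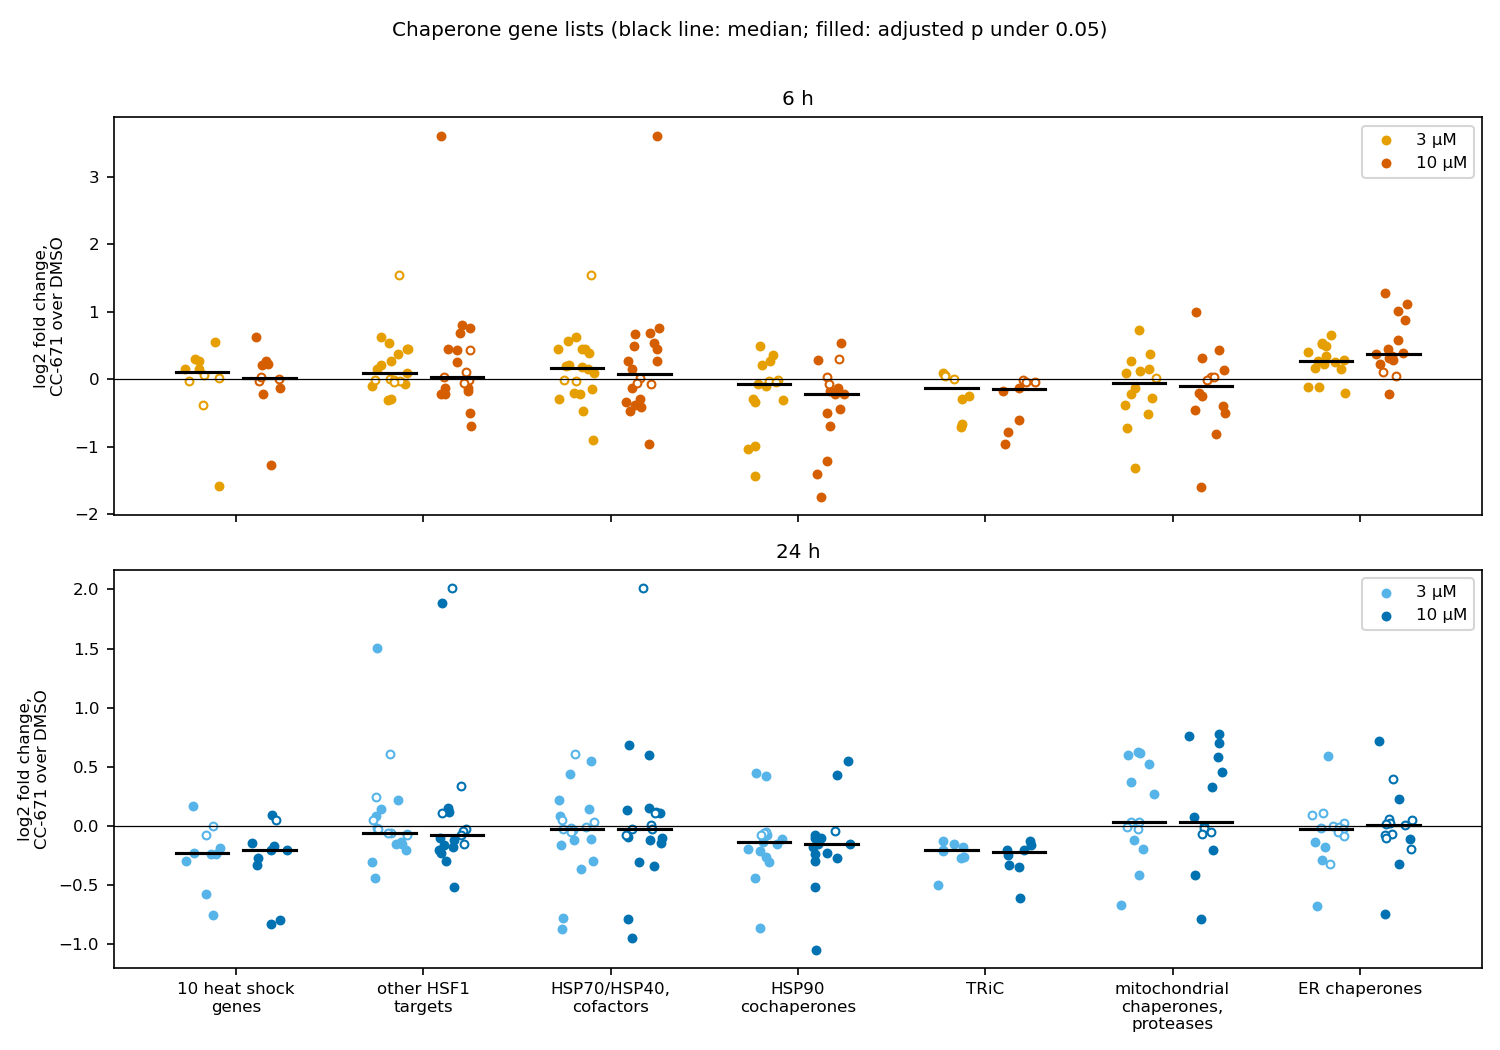
Log2 fold change of CC-671 over DMSO (y axis) for the 10 heat shock genes and 6 of the lists (x axis) at 6 h (top) and 24 h (bottom), with points for genes, filled for adjusted p under 0.05, and black lines for list medians. The heat shock genes and the TRiC subunits lie mostly below 0 at 24 h, and the ER chaperones lie mostly above 0 at 6 h.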

How the data were processed

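RNA from 16 libraries of CAL51 cells was extracted by kit, selected for poly-A and made into strand-specific paired libraries, per the labels' protocols. Per the submitters' processing notes, STAR, HTSeq and edgeR were used with build hg19 (GRCh37). For the annotation, tool versions and strand setting, the sources used here give nothing. The deposited values are unnormalised counts, 1 file a library, of read pairs assigned to each symbol. Lines for pairs assigned to no gene, 16.9 to 20.2% of a library, were left out of library sizes and tests.

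Counts were filtered by expression (edgeR's filterByExpr, minimum count 10 and total 15) and scaled by TMM. They were fitted over all 16 libraries with 6 group means by the robust quasi-likelihood test of edgeR 4.0.16 in R 4.3.3, and 9 comparisons were made. SE is the log2 fold change over the square root of F. The spread behind it was fitted for each gene over all 16 libraries, so an SE is not the spread of the compared groups alone. Alternatives were RLE and no scaling, no or a stricter filter (CPM of at least 1 in at least 5 libraries), a replicate block, only the compared groups, each library left out, limma-voom (limma 3.58.1) and DESeq2 1.42.0. The fitting steps were tested on simulated data. The labels call the libraries biological replicates. Promoters and lengths come from GRCh38, while the counts used hg19.

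The genes and the 8 lists were chosen with earlier results of these data known. Named list genes were up to 3 per direction with the largest called change in each comparison with DMSO, unless stated otherwise. Not every gene that this rule picks is reported here.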

Additional observations from a re-analysis of the deposited data

Results flagged for a closer look

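The difference between the effect of CC-671 at 24 h and its effect at 6 h, each over the DMSO of its time, was tested as an interaction in the edgeR fit, and 15 results passed an adjusted p of 0.05. At 3 µM the difference (log2) was 1.01 for HSPA1B, -0.22 for HSPA8, -0.25 for HSPH1, -0.38 for HSP90AA1, -0.38 for HSP90AB1, -0.55 for DNAJB1, -0.36 for HSPD1 and -0.34 for HSPE1. At 10 µM it was -0.83 for HSPA1A, -0.35 for HSP90AA1, -0.50 for HSP90AB1, -0.58 for DNAJB1, -0.17 for HSPB1, -0.31 for HSPD1 and -0.23 for HSPE1. HSP90AA1, HSP90AB1, DNAJB1, HSPD1 and HSPE1 appear at both doses and the sign is negative each time.

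The 2 values for HSPA1A and HSPA1B have opposite signs and rest on few read pairs of near copies. Their sum gave differences of 0.48 at 3 µM and -0.05 at 10 µM (0.29 without replicate 1 of 10 µM at 6 h), none of them called. The HSPA1A value at 10 µM was -0.49 without replicate 1 of 10 µM at 6 h (adjusted p = 0.142), and HSPA1B was then called at 0.82 (adjusted p = 0.00219). Single libraries that stand apart were not tested in these groups of 2 or 3.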

How the results depend on the processing

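Of the single-gene results under the alternatives, 1162 kept their direction and side of the threshold, 46 were no longer called, 20 became called and 32 changed sign, none of the 32 called before or after. Members called between doses numbered 1 at 6 h and 3 at 24 h with only the groups compared, in place of 4 and 0. Over the comparison of DMSO times, leaving out 1 library gave 2 to 3 called genes in place of 4. In place of the HSPA1A and HSPA1B sum, HSPA1A alone gave -0.39 at 3 µM and 0.0081 at 10 µM at 6 h and -0.83 for the difference in effect at 10 µM, and HSPA1B alone gave 1.01 for that at 3 µM. The difference in effect was -0.37 for HSPA1A alone at 3 µM and 0.48 for HSPA1B alone at 10 µM. Leaving out 1 library, the sum gave 0.027 to 0.51 between doses at 6 h, called without 10 µM replicate 2 (adjusted p = 0.0182) or 3 (0.0434), and -0.19 to 0.29 for the difference in effect at 10 µM, never called. These fits of the sum were added after its levels were seen. For the HSPA1A difference at 10 µM, the call also ended in 10 of the alternatives, with adjusted p up to 0.142. Without a scaling factor, called genes among all tested were higher in 62.9% at 3 µM and 62.3% at 10 µM at 24 h, against 48.9% and 49.2% with TMM. The stricter filter removed HSPA1A and HSPA1B.

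The sign changes were among uncalled values (log2), and their cause was not tested. With no scaling factor, HSPA8 at 3 µM and 6 h was 0.0028, HSP90AA1 at 3 µM and 24 h 0.024, HSPD1 between DMSO times 0.0052 and the HSPH1 difference in effect at 10 µM 0.055. With the stricter filter, HSPA8 at 3 µM and 6 h was 0.010, HSPD1 at 10 µM and 6 h 0.019, and HSPB1 between doses at 6 h 0.0091. HSPA1A at 10 µM and 6 h was -0.011 with no count filter and -0.044 with limma-voom. DNAJB1 at 3 µM and 24 h was -0.0050 with RLE scaling, -0.0017 with no count filter and -0.0051 with DESeq2, and the HSPA8 difference in effect at 10 µM was -0.0027 with RLE scaling and with DESeq2. Leaving out 1 library gave, at 6 h, -0.058 to 0.0085 for HSPA8 and -0.024 to 0.040 for HSPH1 at 3 µM, and -0.33 to 0.17 for HSPA1A at 10 µM. It gave -0.015 to 0.014 for DNAJB1 at 3 µM and 24 h. Between doses it gave -0.012 to 0.53 for HSPA1B, -0.060 to 0.15 for DNAJB1 and -0.032 to 0.038 for HSPB1 at 6 h, and -0.30 to 0.082 for HSPA1A at 24 h. Between DMSO times it gave -0.051 to 0.029 for HSPA1A, -0.022 to 0.042 for HSP90AA1 and -0.024 to 0.016 for HSPD1, and for the HSPH1 difference in effect at 10 µM -0.076 to 0.028.

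Deviations of same-numbered libraries from their group means, over all tested genes, gave 16 correlations from -0.0757 to 0.0808. With 2 libraries in a DMSO group these deviations mirror each other, so the correlations are not independent. They cannot decide whether the numbers mark a shared batch. With the replicate block, 8 genes were called at 10 µM and 24 h in place of 9, HSPB1 being lost. HSPA1A and HSPA1B rest on as few as 35 pairs in a library, and pairs that map to several places were not counted for them. The other 8 genes had far more pairs, and for them the spread between libraries still ended some calls.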

Other observations

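Summed epithelial markers at 24 h were 1593 to 1639 CPM with DMSO, 1869 to 1916 CPM with 3 µM and 1861 to 1889 CPM with 10 µM. Summed mesenchymal markers at 24 h were 2318 to 2355 CPM with DMSO, 1898 to 1990 CPM with 3 µM and 1824 to 1888 CPM with 10 µM. The hormone receptor and ERBB2 sum, nearly all of it ERBB2, was 84.7 to 95.3 CPM in the CC-671 libraries and 178 to 189 CPM in the DMSO libraries at 6 h.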
